A study of Chlamydomonas reinhardtii with 9 samples.

Results

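FRE1, FOX1 and FTR1 encode the reductive iron uptake system at the plasma membrane of the green alga Chlamydomonas, and they are the 3 genes described here, of 17893 genes in the matrices. They were chosen by locus identifier, Cre04.g227400 for FRE1, Cre09.g393150 for FOX1 and Cre03.g192050 for FTR1, and each is present in all 9 libraries. The study asked whether single-cell RNA sequencing (scRNA-seq) reports the nutritional state of algal cells. The libraries are Chromium single-cell 3′ libraries of batch cultures grown in constant light in Tris Acetate Phosphate medium. In experiment 1, cells of strain CC-5390 spent 23 h without iron (Fe−) or with 20 µM FeEDTA (Fe+), and another library, Mix, was made from both cultures at equal cell densities. In experiment 2, CC-5390 cells were kept for 23 h without iron (Fe−), without nitrogen but with iron (N−, libraries R1 and R2) or in replete medium (Fe+), and strain CC-4532 was kept in Fe− or Fe+. CC-5390 lacks a cell wall and is of mating type plus, whereas CC-4532 has a wall and is of mating type minus, so a difference between the strains cannot be assigned to either trait. Within an experiment the Fe− and Fe+ cultures of a strain had the same pre-culture, each condition has 1 library per strain and experiment, and the study calls N− R1 and R2 technical duplicates, although its methods leave unclear whether they came from separate flasks.

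Reductive iron uptake works in steps. A ferric reductase reduces ferric iron outside the cell, and a multicopper oxidase oxidizes the ferrous iron again while a permease bound to it carries the iron across the plasma membrane. In Chlamydomonas FRE1 is the reductase, FOX1 the multicopper oxidase and FTR1 the permease, and these genes are known from bulk studies to be induced when iron is scarce. The 3 genes are unlinked. In the v5.5 assembly, RefSeq places FRE1 on chromosome 4 from 3355079 to 3363615, FOX1 on chromosome 9 from 2173636 to 2185319, and FTR1 on chromosome 3 from 6157033 to 6160982. All 3 are also on the study's list of iron deficiency genes, which was chosen from an earlier bulk data set and not from these cells. The study had, however, already reported all 3 as strongly induced in Fe− cells of the experiment that includes the Mix library. The rise of these genes in Fe− described below is therefore not independent of that report.

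The libraries held 2064 to 11798 cells and 7576775 to 52436795 unique molecular identifiers (UMIs), with medians of 1388 to 5843 UMIs per cell. Each deposited library held more cells than the study reported for it, and the reason was not tested. Levels are given as CPM, the UMIs of a gene scaled to a common library total, with exact Poisson 95% intervals. For shares of cells the 95% intervals are Clopper-Pearson. Both kinds of interval cover counting error only. Any 2 libraries shared between 0 and 40 cell barcodes. Cells of 1 library are not replicates, so conditions were compared over libraries.

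FRE1 had the widest range of the 3 genes across the libraries. It reached 655.7 CPM in the Fe− library of experiment 1, against 24.2 CPM in its Fe+ library, from 24348 and 775 UMIs. In experiment 2 it had 264.7 CPM in Fe− cells of CC-5390, against 24.6 CPM in Fe+ cells. In CC-4532 the level was 137.6 CPM in Fe−, from 4547 UMIs, against 0.219 CPM in Fe+, from only 4 UMIs. The lowest Fe− library was thus 5.58-fold above the highest Fe+ library, and the groups did not overlap. In N− cells FRE1 had 2.90 CPM in R1 and 3.81 CPM in R2, and these duplicates did not differ beyond counting error.

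FOX1 was counted in every library and varied less than FRE1. In experiment 1 it had 535.5 CPM in Fe−, against 97.7 CPM in Fe+. In experiment 2 the CC-5390 libraries had 221.8 CPM in Fe− and 46.3 CPM in Fe+, and those of CC-4532 had 177.8 CPM in Fe− and 14.4 CPM in Fe+. Fe− and Fe+ did not overlap for the oxidase gene either. N− R1 had 29.2 CPM and N− R2 15.3 CPM, a difference of 1.91-fold (1.54 to 2.38) between these libraries.

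FTR1 followed the same split by iron, with 144.5 CPM in Fe− and 20.9 CPM in Fe+ of experiment 1. In experiment 2 it had 47.0 CPM in Fe− and 11.9 CPM in Fe+ cells of CC-5390. In CC-4532 it had 111.4 CPM in Fe−, against 4.98 CPM in Fe+. The permease gene had 10.7 CPM in N− R1 and 6.54 CPM in N− R2. Over both strains, the Fe− libraries of all 3 genes lay above all Fe+ libraries, as was the case for 13.1% of the 15590 genes with at least 20 UMIs in these 6 libraries.

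**Figure D1:**
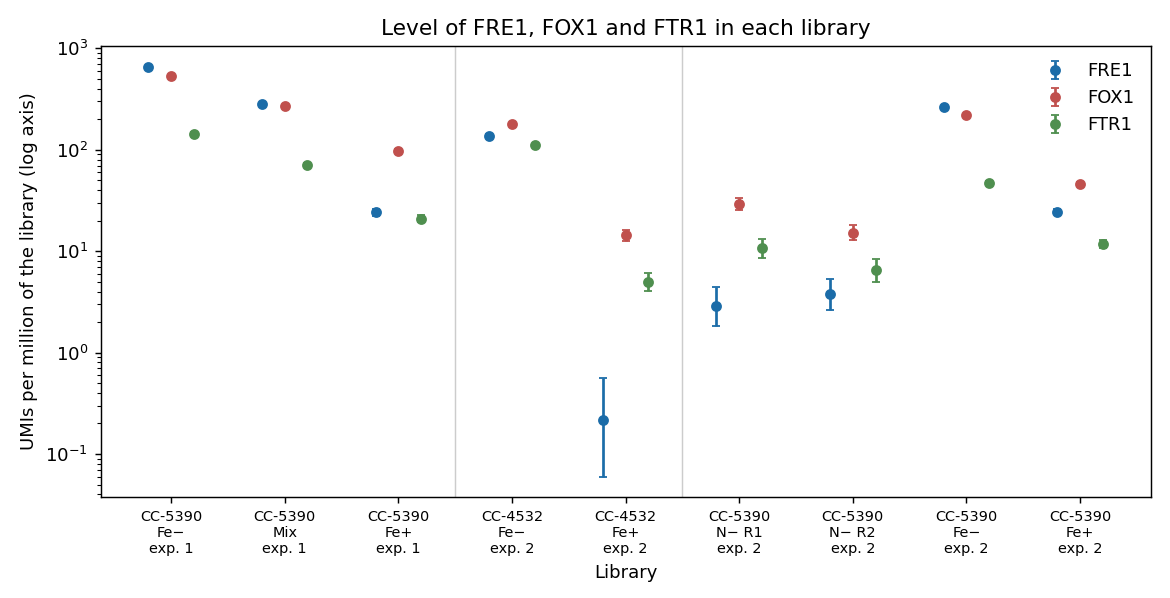
Level of each gene in each library, in CPM on a log axis, with exact Poisson 95% intervals. Libraries are set in 3 blocks, experiment 1 of CC-5390, CC-4532, and experiment 2 of CC-5390. FRE1 spans from 0.219 CPM in Fe+ of CC-4532 to 655.7 CPM in Fe− of experiment 1, and every Fe− point lies above every Fe+ point of the same gene.

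The order of the libraries was nearly the same for the 3 genes. The lowest library was Fe+ of CC-4532, followed by both N− libraries, both Fe+ libraries of CC-5390, and then the Fe− and Mix libraries, with Fe− of experiment 1 at the top. For FRE1, the neighbours that did not differ beyond counting error were N− R1 and R2, and the Fe+ libraries of both experiments (ratio 1.02, interval 0.926 to 1.12). For FOX1, N− R2 and Fe+ of CC-4532 did not differ (1.06, 0.857 to 1.31). For FTR1, N− R1 did not differ from Fe+ of CC-5390 in experiment 2, nor N− R2 from Fe+ of CC-4532. FTR1 also departed from the order at the top, since Fe− of CC-4532 stood above Fe− of CC-5390 in experiment 2 and above Mix.

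The Fe− response was then compared over libraries. All 3 genes were higher in Fe− in each of the 3 pairs of libraries. FRE1 was 27.1-fold higher in experiment 1 (25.3 to 29.2), 10.7-fold in CC-5390 of experiment 2 (10.0 to 11.5) and 628.4-fold in CC-4532. The last ratio rests on the 4 UMIs in Fe+, and its interval runs from 245.3 to 2307. FOX1 was higher by 5.48-fold, 4.79-fold and 12.3-fold, and FTR1 by 6.91-fold, 3.95-fold and 22.4-fold, in the same order of pairs. All 3 genes were at least 2-fold higher in each pair, as were 17.8% of genes in experiment 1, 22.1% in CC-5390 of experiment 2 and 34.4% in CC-4532. For each gene the ratio in CC-4532 exceeded both ratios in CC-5390. This difference between strains was not tested, since CC-4532 has 1 library per condition.

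**Figure D2:**
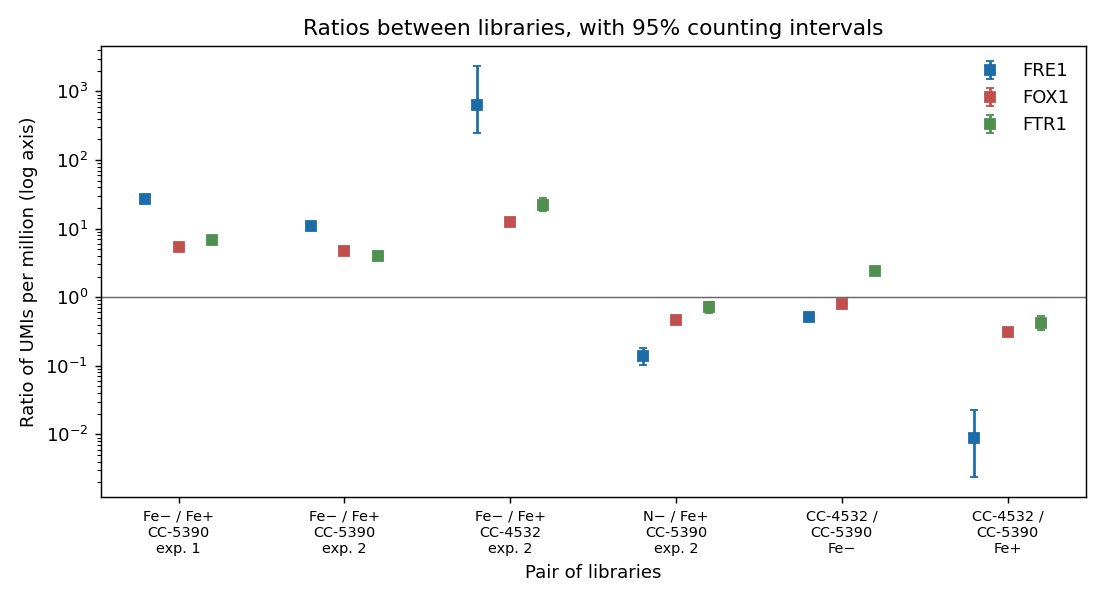
Ratios of CPM between libraries on a log axis, with 95% counting intervals from an exact conditional binomial; points above the line at 1 are higher in the library named first. All Fe− over Fe+ ratios exceed 1 and are largest in CC-4532, the N− over Fe+ ratios are below 1, and FTR1 changes sides between the 2 strain comparisons.

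Over the 3 pairs, with the pair as a block, edgeR's quasi-likelihood test called all 3 genes as higher in Fe−, at an adjusted p of 0.00061 for FRE1, 0.00131 for FOX1 and 0.00179 for FTR1. FRE1 rose by 5.11 on the log2 scale (SE 0.77), FOX1 by 2.55 (SE 0.44) and FTR1 by 2.84 (SE 0.51). Leaving out 1 pair moved FRE1 most, to 3.96 without the CC-4532 pair and 6.37 without the CC-5390 pair of experiment 2, and FTR1 to 2.25 without the CC-4532 pair. In this fit, 17.5% of 14250 genes were called, 8.86% as higher in Fe−. The number of genes called was 2494, and it was 336 without the CC-5390 pair of experiment 2, 1194 without the CC-4532 pair and 3977 without the CC-5390 pair of experiment 1, with FRE1, FOX1 and FTR1 called each time. FRE1 had the 12th largest increase, FTR1 the 107th and FOX1 the 182nd. Without the block the genes did not pass, with adjusted p of 0.199 for FRE1, 0.184 for FOX1 and 0.184 for FTR1, and edgeR called no gene, although 2252 had an unadjusted p under 0.05.

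Within CC-5390 alone, 2 Fe− against 2 Fe+ libraries, all 3 genes were again higher in Fe−. FRE1 averaged 4.09 ± 0.95 on the log2 scale of CPM ratios, FOX1 2.36 ± 0.14 and FTR1 2.39 ± 0.57 (SD, n = 2 experiments). In edgeR without a block, the genes missed the threshold, at an adjusted p of 0.214 for FRE1, 0.295 for FOX1 and 0.286 for FTR1. That fit called 0 of 14588 genes, with 1777 at an unadjusted p under 0.05, and DESeq2, also without a block, called 548, FRE1, FOX1 and FTR1 among them (adjusted p 4.67e-08, 0.00872 and 0.00802). With the experiment as a block, edgeR gave adjusted p of 4.19e-05 for FRE1, 0.00307 for FOX1 and 0.00961 for FTR1, and called 8.18% of genes, 4.32% as higher in Fe−. Levels also differed between the experiments within an iron condition. In Fe− cells, experiment 2 had 2.48-fold less FRE1, 2.41-fold less FOX1 and 3.08-fold less FTR1 than experiment 1, whereas in Fe+ cells FRE1 was equal within counting error and FOX1 was 2.11-fold lower in experiment 2. The median gene was itself lower in experiment 2, with a log2 ratio to experiment 1 of -0.91 in Fe− and -0.66 in Fe+. The study sequenced the experiments on different instruments and to different depths, and the part of this in the levels was not tested.

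An iron list of 7 other genes was read over the same pairs. The list is not complete and includes CTP1 and MTP1, which are not genes of iron uptake or storage by name. All 7 were called as higher in Fe−, as were 8.86% of 14250 genes. The median log2 change of the 7 was 3.09, beside 2.84 over FRE1, FOX1 and FTR1. The study had already reported FEA1, FEA2, IRT2, CTP1 and MTP1 as induced or highly expressed in Fe− cells of experiment 1. The count is therefore not independent of these data. FEA1 and FEA2 encode periplasmic iron assimilating proteins and rose by 3.09 and 5.35 on the log2 scale. IRT1 and IRT2, of the ZIP transporter family, rose by 6.66 and 3.87. IRT1 was near the floor in Fe+, with 1 UMI in experiment 1, 3 in CC-5390 of experiment 2 and 1 in CC-4532. The size of its rise thus rests on few UMIs. IRT2 had 63, 16 and 1 UMIs in the same Fe+ libraries. CTP1, a copper transporting ATPase predicted to load copper into FOX1, rose by 2.15, and the ferritin gene FER1 by 2.41. MTP1 rose by 1.55. Since FOX1 needs copper, 4 copper-related genes were read beside it. PCY1, which encodes the copper protein plastocyanin, fell by 1.76 on the log2 scale, and CRD1, a subunit of the aerobic cyclase of chlorophyll synthesis, fell by 1.74. CTR3 and CPX1 did not pass, at 0.41 and -0.49, and CTR3 had a log2 change of -0.23 without the CC-4532 pair. Without the CC-5390 pair of experiment 2, edgeR no longer called CTP1 (2.26), MTP1 (1.41), PCY1 (-1.82) and CRD1 (-2.15), and CRD1 was not called without the CC-4532 pair either (-1.72). Without the CC-5390 pair of experiment 1, CTR3 was called, at 1.26.

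Nitrogen starvation went with lower levels of these genes than in Fe+ cells of the same experiment. Summed over R1 and R2, FRE1 had 3.40 CPM in N−, against 24.6 CPM in Fe+, which is 7.24-fold lower. FOX1 had 21.5 CPM in N− and 46.3 CPM in Fe+, 2.15-fold lower. FTR1 had 8.42 CPM in N− and 11.9 CPM in Fe+, 1.41-fold lower (interval of the ratio 0.582 to 0.858). Thus 2 of the 3 genes were at least 2-fold lower, against 15.7% of 14207 genes with at least 20 UMIs. These are ratios between 1 sample of each condition, so no test was made. The FOX1 ratio differed between the duplicates, at 1.59-fold lower in R1 and 3.03-fold lower in R2. The median gene stood at 0.95 on the log2 scale above its Fe+ level in this comparison, and scaling by TMM lowered the log2 ratios to -3.85 for FRE1, -2.09 for FOX1 and -1.49 for FTR1. For FTR1, R1 alone did not differ from Fe+ beyond counting error (ratio 0.900, 0.701 to 1.14), whereas R2 did (0.550, 0.413 to 0.722).

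The other iron genes did not move together in N−. FEA1 had 16.3 CPM in N−, against 132.2 CPM in Fe+. FER1 had 60.3 CPM in N− and 68.0 CPM in Fe+. The log2 ratio of MTP1 was 1.24, where the median gene stood at 0.95. IRT1 and IRT2 were near the floor, with 0 and 2 UMIs in N−, against 3 and 16 in Fe+. CTP1 was 6.46-fold higher in N− than in Fe+ (5.77 to 7.24), at 71.1 CPM, and so were 3 of the 4 copper genes. CPX1, which encodes coproporphyrinogen oxidase, had 196.5 CPM in N− and 26.1 CPM in Fe+, and CRD1 had 127.4 CPM in N− and 20.5 CPM in Fe+. CTR3 had 58.2 CPM in N−, against 3.48 CPM in Fe+. Over all genes, 48.9% were at least 2-fold higher in N−, and TMM scaling gave log2 ratios of 1.70 for CTP1, 1.92 for CPX1, 1.64 for CRD1 and 3.07 for CTR3. PCY1 stood apart, with 15.7 CPM in N− against 2741 CPM in Fe+. FEA2 was at 11.5 CPM in N− and 6.19 CPM in Fe+, but its log2 ratio of 0.90 became -0.10 under TMM scaling.

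The strains differed in the level of the 3 genes under both iron conditions. In Fe−, CC-4532 had 0.520 times the FRE1 level of CC-5390 (0.503 to 0.538) and 0.801 times its FOX1 level, but 2.37 times its FTR1 level (2.25 to 2.498), where 9.2% of genes were at least 2-fold higher. The median gene was 0.57 lower on the log2 scale in CC-4532, and relative to that shift the direction of FOX1 turned, to 0.19 under TMM scaling. In Fe+, FRE1 was 112.5-fold lower in CC-4532 than in CC-5390 (43.8 to 413.8), FOX1 3.21-fold lower and FTR1 2.38-fold lower. The median gene there was 0.87 lower on the log2 scale. In Fe+, therefore, all 3 genes were at least 2-fold lower in CC-4532, as were 43.5% of 13586 genes. Under TMM scaling the log2 ratios were -5.98 for FRE1, -0.85 for FOX1 and -0.42 for FTR1, so FOX1 and FTR1 were then less than 2-fold lower. With 1 library per strain and condition, these differences were not tested.

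The balance of the 3 genes within a library was also read, as the share of each in their summed UMIs. FRE1 made up 49.1% of the sum in Fe− of experiment 1 and 49.6% in Fe− of CC-5390 in experiment 2, against 16.9% and 29.8% in the matching Fe+ libraries. In CC-4532 its share was 32.2% in Fe−, against 1.12% in Fe+ (0.305 to 2.84). FTR1 took 26.1% in Fe− of CC-4532 and 25.4% in its Fe+, while in CC-5390 it took 8.80% to 10.8% in Fe− and 14.3% to 14.7% in Fe+. These shares compare a gene between libraries and not the genes with each other, because UMI yields differ between transcripts.

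The Mix library gave each gene an intermediate level, 283.8 CPM for FRE1, 269.6 CPM for FOX1 and 70.9 CPM for FTR1. The position of Mix between Fe− and Fe+ of experiment 1 implied a share of Fe− RNA of 41.1% by FRE1 (40.0 to 42.2), 39.3% by FOX1 (37.7 to 40.8) and 40.4% by FTR1 (37.7 to 43.2). The 3 intervals overlap. The other iron genes gave 37.6% to 41.3%. Of the copper genes, PCY1 gave 46.7% (46.1 to 47.4), CRD1 44.7% (42.1 to 47.2), CPX1 42.2% (34.8 to 49.5) and CTR3 58.0% (43.9 to 72.2).

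Shares of cells with a UMI were compared after drawing 1000 UMIs from every cell, which left out 59 to 1505 cells per library. The loss was uneven, at 1158 of 3337 cells in N− R1 and 1505 of 11016 in Fe− of experiment 1. In Fe+ of experiment 1 it was 124 of 11798. The shares thus describe only the deeper cells, a different part of each library. FRE1 was detected in 49.6% of cells in Fe− of experiment 1 (48.6 to 50.6), against 1.83% in Fe+. In experiment 2 it was detected in 23.2% of Fe− and 2.19% of Fe+ cells of CC-5390. In CC-4532 it was found in 12.9% of Fe− cells and in 0 of 3016 Fe+ cells, which allows up to 0.0995% of cells with a UMI by the limit of 3 counts, or 0.122% as the Clopper-Pearson bound. Before the draw, 3 of the 3075 cells of that library had a FRE1 UMI. FOX1 was detected in 42.7%, 21.2% and 15.3% of Fe− cells, against 8.11%, 4.401% and 1.49% of Fe+ cells in the same order of pairs. FTR1 was detected in 15.1%, 5.36% and 9.22% of Fe− cells, against 2.09%, 1.20% and 0.298% of Fe+ cells. In N− R1 and R2, FRE1 was found in 0.184% and 0.347% of cells, FOX1 in 2.85% and 1.56%, and FTR1 in 1.19% and 0.578%. Before the draw, FRE1 had a UMI in 75.6% of Fe− cells of experiment 1, against 5.14% of Fe+ cells. No cell type that should lack these genes is present in such cultures, and the part of free RNA in the low shares was not tested.

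**Figure D3:**
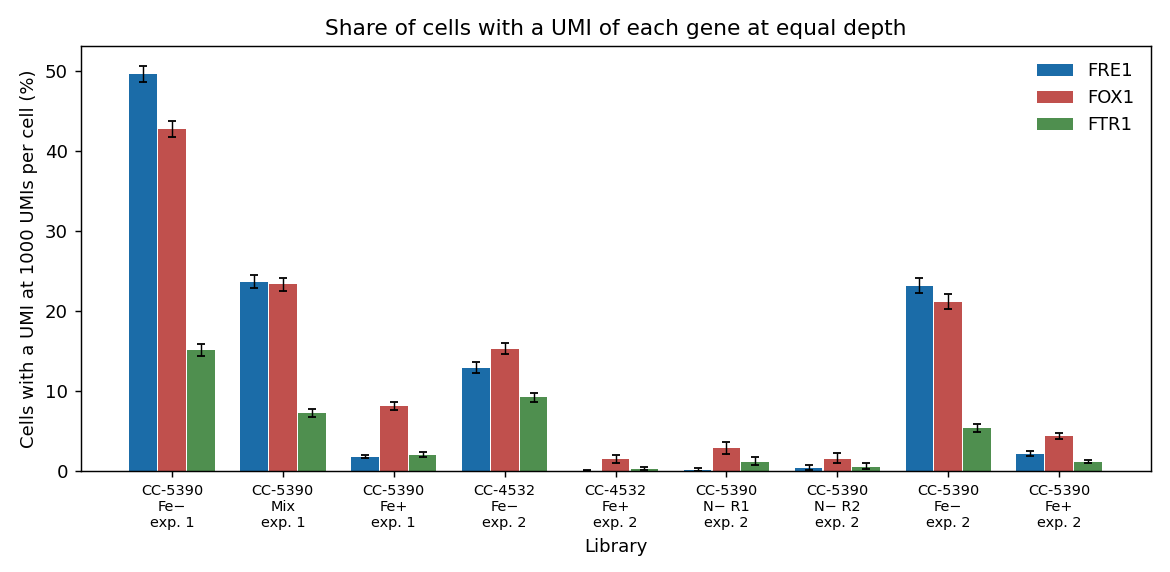
Share of cells with at least 1 UMI of each gene after drawing 1000 UMIs per cell, in percent, by library, with Clopper-Pearson 95% intervals. In each strain and experiment the Fe− bars are above the Fe+ bars for all 3 genes, from 49.6% for FRE1 in Fe− of experiment 1 to 0 of 3016 cells in Fe+ of CC-4532.

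CPM levels also varied with the depth of the cells within a library. In each library, cells were divided by depth into 3 groups of equal size. In Fe− of experiment 1, the shallow group had 913.7 CPM of FRE1, against 551.8 CPM in the deep group. FOX1 and FTR1 ran the same way there, at 722.0 and 209.5 CPM in shallow cells, against 436.3 and 115.2 CPM in deep cells. In Fe− of CC-5390 in experiment 2, FOX1 had 369.8 CPM in shallow and 191.7 CPM in deep cells, FTR1 had 74.6 and 40.6 CPM, and the gap was smaller for FRE1, at 293.6 and 250.2 CPM. In Fe− of CC-4532, FTR1 had no steady trend with depth, at 110.5 CPM in shallow, 88.5 CPM in middle and 124.5 CPM in deep cells. In Fe+ of experiment 1 the direction was opposite to that in its Fe− library, with 10.6 CPM of FRE1 in shallow cells, against 33.7 CPM in deep cells. The part of depth in the levels was not tested.

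Co-detection in single cells was measured as the number of cells with UMIs of both genes over the number given by the product of their shares, at 1000 UMIs per cell. Because 1 draw of UMIs is random, the ratio was also computed from the exact expected shares over all draws. In Fe− of experiment 1, FRE1 and FOX1 were found together in 2216 of 9511 cells, 1.10 times the product (1.06 to 1.14), and in 1.12 times over all draws. FRE1 and FTR1 gave 1.09 (1.02 to 1.16), and FOX1 and FTR1 gave 1.16 (1.08 to 1.25). Put another way, 54.6% of cells with a FOX1 UMI also had one of FRE1, against 45.8% of cells without.

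In the Fe− libraries of experiment 2 the same pairs were also above the product of their shares. FRE1 and FOX1 gave 1.11 in CC-5390 (1.01 to 1.21) and 1.18 in CC-4532 (1.03 to 1.34). FRE1 and FTR1 gave 1.12 and 1.11, with both intervals reaching below 1. FOX1 and FTR1 gave 1.26 in CC-5390 (1.04 to 1.51) and 1.47 in CC-4532 (1.28 to 1.69), and over all draws 1.28 and 1.41.

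In Fe+ cells few cells had both genes. FRE1 and FOX1 were found together in 41 of 11674 Fe+ cells of experiment 1, 2.36 times the product (1.70 to 3.20), and in 16 of 11201 Fe+ cells of CC-5390 in experiment 2, a ratio of 1.48 (0.848 to 2.41). FOX1 and FTR1 gave 0.960 from 19 cells in Fe+ of experiment 1 (0.578 to 1.498), whereas the ratio over all draws was 1.46, so the draw decided the side of 1. In Fe+ of CC-4532 and in both N− libraries, fewer than 1 cell with both genes was given by the product for each pair, and no ratio is read there.

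Ratios in Mix were higher than in Fe− of experiment 1, with 1.57 for FRE1 and FOX1 (1.47 to 1.67), 1.65 for FRE1 and FTR1 (1.47 to 1.84) and 1.45 for FOX1 and FTR1 (1.27 to 1.63). An equal mixture of the cells with at least 1000 UMIs in Fe− and Fe+ of experiment 1 would give 1.83, 1.93 and 1.78 for these pairs. Observed in Mix over all draws were 1.57, 1.63 and 1.53. Such a mixture would also give a UMI of FRE1 in 25.9% of cells, against 23.5% observed in Mix. The limit of 1000 UMIs left out 1505 of 11016 Fe− cells but 124 of 11798 Fe+ cells. Cultures mixed at equal cell numbers would thus keep fewer Fe− than Fe+ cells, and the part of this in the lower FRE1 share was not tested. The cause of the gaps in the co-detection ratios was not tested either. Of the 16 combinations of a pair and a library with at least 5 cells given by the product, 15 were above 1. These include the pairs in Mix, where mixing the cultures alone gives ratios above 1. The combinations share genes and cells, and no rate over all gene pairs was computed, so the tally is only a description.

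**Figure D4:**
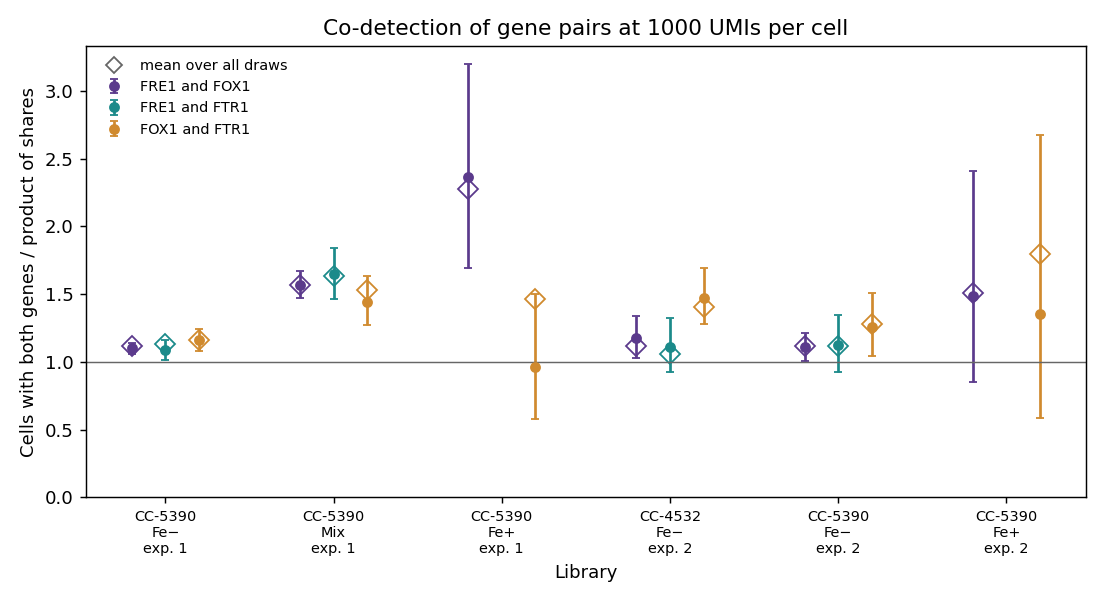
Cells with UMIs of both genes over the number given by the product of their shares, at 1000 UMIs per cell, by library and pair, with 95% intervals; open diamonds are ratios over all draws. Only combinations with at least 5 cells given by the product are drawn. Points of Fe− libraries lie between 1.09 and 1.47, those of Mix between 1.45 and 1.65, and Fe+ intervals are wide.

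Counting the 3 genes together, 4.47% of Fe− cells of experiment 1 had UMIs of all of them at 1000 UMIs, against 3.20% given by the product of the shares. In Fe− of experiment 2 the share was 0.444% in CC-5390, against 0.263% by the product, and 0.341% in CC-4532, against 0.182%. At the other end, 27.1% of Fe− cells of experiment 1 had none of the 3, against 88.5% of Fe+ cells. The product of the shares gave 24.5% and 88.3%. Before the draw, 11.5% of Fe− and 73.8% of Fe+ cells had none, so these shares depend on depth. At 1000 UMIs per cell, FRE1 counts were spread somewhat more than a Poisson count would be. Their ratio of variance to mean was 1.22 in Fe− and 1.10 in Fe+ of experiment 1. Without the draw, where cells also differ in depth, this ratio was 2.15 in Fe− and 1.54 in Fe+.

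The genes most like each of the 3 across the 8 libraries other than Mix were ranked by Pearson's r of log2(CPM + 1) over 10066 genes with at least 500 UMIs. These libraries share conditions, experiments and depth, so r is a description. FRE1 was most like Cre05.g241400 (r = 0.972), followed by FOX1 (0.970), Cre13.g588700 (0.951), FEA1 (0.948) and Cre07.g336800 (0.946). FOX1 was most like FEA1 (0.982), then Cre16.g693203 (0.974), Cre13.g588700 (0.970), FRE1 (0.970) and Cre08.g366300 (0.969). FTR1 was most like Cre13.g588700 (0.981), then Cre03.g146447 (0.972), Cre05.g241400 (0.964), FOX1 (0.957) and Cre10.g466050 (0.956). Cre13.g588700 was on all 3 lists, and FRE1 and FTR1 had r = 0.935.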

How the data were processed

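Per the labels and the study's methods, the authors aligned reads of Chromium single-cell libraries to the v5.5 genome and counted UMIs with Cell Ranger, and the deposited values are raw UMI counts per gene and cell, 1 matrix per library, used without further filtering. No doublet caller was run, and leaving out the 5% of cells with most UMIs was an alternative. Counts were summed per library and scaled to CPM. edgeR 4.0.16 (R 4.3.3) was run with filterByExpr, TMM, the quasi-likelihood test and Benjamini-Hochberg adjustment at 0.05. The pair was a block over 3 pairs, and CC-5390 alone had no block. A trial of edgeR on simulated data used less spread between libraries than these data have. That trial therefore does not show how often the tests err here. DESeq2 1.42.0 was an alternative. The experiment pairs Fe− and Fe+ libraries, which share a pre-culture, and paired deviations correlated at 0.506 over 14635 genes. Per the study's methods, the experiments also differed in sequencer and read depth. This correlation therefore cannot tell a shared pre-culture from shared sequencing. Where a condition had 1 library, CPM ratios have exact conditional binomial intervals and no test, and p-values measure only the spread between these cultures. N− R1 and R2 were summed as 1 sample. Cells were thinned in Python 3.11.15 (numpy 2.4.6, scipy 1.17.1). An interval of a co-detection ratio treats the product of shares as fixed.

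Named genes were the 3 genes, an iron list and a copper list, limited to loci whose names the study's sources give, and the 5 most alike genes per gene. The genes, lists and tests were chosen with earlier results of these data known. Of the 17893 loci, 17738 have a position in RefSeq.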

Additional observations from a re-analysis of the deposited data

Results flagged for a closer look

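FTR1 differed between CC-4532 and CC-5390 in opposite directions under the 2 iron conditions of experiment 2. Its log2 ratio of CC-4532 over CC-5390 was 1.25 in Fe− and -1.25 in Fe+, and both counting intervals excluded equality. Each value compares 1 library with 1 library, so the difference between the conditions was not tested. Under TMM scaling the ratios were 1.75 and -0.42.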

How the results depend on the processing

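FRE1, FOX1 and FTR1 kept a higher level in Fe− under every alternative of the Fe− against Fe+ comparisons, but whether they passed the threshold depended on the block and, in CC-5390, on the tool. In CC-5390, the replicate block gave log2 changes of 3.96 for FRE1, 2.22 for FOX1 and 2.25 for FTR1, all called, and DESeq2 gave 3.98, 2.25 and 2.33, also called. Over the other alternatives, adjusted p reached 0.322 for FRE1, 0.926 for FOX1 and 0.731 for FTR1. The count of genes called in CC-5390 was 1194 with the replicate block, 48 without a filter on low counts, 548 with DESeq2 and, with 1 library left out, 184 without Fe− of experiment 1, 77 without Fe+ of experiment 1, 11 without Fe− of experiment 2 and 364 without Fe+ of experiment 2. Over 3 pairs, leaving out the block gave 0 called genes and log2 changes of 4.31 for FRE1, 2.49 for FOX1 and 3.03 for FTR1, none called. Leaving out 1 pair gave 336 to 3977 called genes, with the 3 genes called each time. CTR3 and CPX1, which were not called, changed sign with 1 library of CC-5390 left out, at -1.13 to 0.76 and -1.14 to 0.30, and CTR3 was at -0.23 to 1.26 with 1 pair left out. TMM scaling gave log2 ratios in N− of -3.85, -2.09 and -1.49 for FRE1, FOX1 and FTR1, and of -0.10 for FEA2. In CC-4532 it gave Fe− over Fe+ ratios of 3.28 for FOX1 and 4.14 for FTR1. Between strains in Fe−, it gave -0.44 for FRE1, 0.19 for FOX1 and 1.75 for FTR1, and in Fe+ -0.85 for FOX1 and -0.42 for FTR1. Without the 5% of cells with most UMIs, the Fe− strain ratios were -0.39 for FOX1 and 1.15 for FTR1, and the share of Fe− RNA in Mix was 43.0% by FRE1 and 40.9% by FOX1. Averaging over cells gave 39.9% by FRE1. The cause of these shifts was not tested. Shares of cells were higher in Fe− for all 9 combinations of gene and pair at each depth. The rate of this over all genes was not computed, and the combinations share the same libraries. Depth limits the N− libraries and FRE1 in Fe+ of CC-4532.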
